A study of Mus musculus with 14 samples.

Results

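A set of 10 genes of cytokine signalling through JAK2 and STAT proteins was followed in KL974, a cell line of mouse acute myeloid leukemia (AML), in which Ogdh, a gene of the tricarboxylic acid cycle, was knocked down. They are the kinase gene Jak2, the transcription factor genes Stat3, Stat5a and Stat5b, the kinase genes Pim1 and Pim2, and the feedback genes Cish, Socs1, Socs2 and Socs3. They were picked by gene symbol, as 10 of the 53465 genes in the count table, and all 10 are in it. Pim1 fell to 0.499 and Socs2 to 0.495 of the control level over both Ogdh hairpins, whereas the other 7 genes that could be tested did not pass the test. The share that passed, 2 of 9, is close to the 16.1% that passed among all genes tested.

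Every sample came from the same line, with the genotype Trp53R172H;shMll3;shNf1, so the controls also carry mutant Trp53 and the hairpins against Mll3 and Nf1. No label says whether the line is a single clone. The cells grew in medium with mouse IL3, IL6 and SCF in every group. All cells carried a lentiviral short hairpin whose expression, linked to that of blue fluorescent protein (BFP), is induced by doxycycline. The 2 knockdown groups were BFP positive cells, sorted at day 4 of doxycycline with the Ogdh hairpins shOgdh346 and shOgdh2081. Control cells carried shRen713, a hairpin named for Renilla luciferase. They were sampled at day 2 and day 4 as sorted BFP positive and sorted BFP negative cells, and untreated at day 0, where the titles name no sort. The titles call the BFP positive cells induced and the BFP negative cells uninduced, and do not name doxycycline. Each of the 7 groups had 2 libraries, 14 in all. No label says that the replicates of a group were separate cultures, so the p-values measure only the spread between these libraries, which may be technical.

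A cytokine that binds its receptor brings receptor-bound JAK kinases together, and these phosphorylate STAT proteins, which then enter the nucleus and switch on target genes. JAK2 serves the receptors for IL3, GM-CSF and erythropoietin, which signal mainly through STAT5, and with JAK1 the IL6 receptor, which signals mainly through STAT3. Among the targets are the PIM kinases, which promote growth and survival, and CIS (the product of Cish) and the SOCS proteins, which bind receptors or JAKs and damp the same signal. PIM and SOCS proteins are regulated largely by how much of them is made, whereas JAK and STAT proteins are switched by phosphorylation, which RNA counts do not measure.

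STAT proteins are known to bind the palindrome TTCNNNGAA, and STAT6 mainly the same palindrome with 1 base more between its arms. Both read the same on the opposite strand. RefSeq promoter windows on GRCm38.p6 were found for 9 of the 10 genes, 12 promoters in all, and Socs2 was not among them. In the 250 bases before the start, TTCNNNGAA was present in 1 of the 12 promoters, that of Socs3, against 7.02% of the 32851 mouse promoters in the same table. The longer palindrome was present in 0 of the 12, against 5.85% of all promoters. The Socs3 stretch is shown because it holds the match, printed in capitals, and the Pim1 stretch because Pim1 fell with Ogdh knockdown and holds neither motif. Each runs 5′ to 3′ on the strand of its gene and is the longest part of the window outside the gene's own exons. The whole Socs3 window lies inside the deposited span of that gene, chr11:117966079-117970047. The RefSeq start used for it is therefore not the deposited 5′ end. The Socs3 stretch is chr11:117969452-117969616 on the minus strand and the Pim1 stretch is chr17:29490535-29490752 on the plus strand.
Socs3: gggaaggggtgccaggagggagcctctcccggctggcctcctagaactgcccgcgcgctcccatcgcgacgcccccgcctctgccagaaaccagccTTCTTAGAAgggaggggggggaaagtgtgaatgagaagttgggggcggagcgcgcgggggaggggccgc
Pim1: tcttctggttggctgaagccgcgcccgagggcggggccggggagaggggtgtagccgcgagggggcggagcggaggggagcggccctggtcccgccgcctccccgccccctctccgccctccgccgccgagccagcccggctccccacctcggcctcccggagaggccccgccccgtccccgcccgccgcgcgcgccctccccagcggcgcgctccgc
These letters describe the windows only, and no binding was measured.

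The libraries held 913482 to 10271698 counts. Both Ogdh hairpins had a deep and a shallow library, 5680900 and 1159021 counts under shOgdh346 and 913482 and 4627632 counts under shOgdh2081, against 3191961 and 2148243 counts for control BFP positive cells at day 4. Levels below are counts-per-million (CPM) after scaling by TMM, the trimmed mean of M values. Ogdh itself had 60.8 and 60.8 CPM under shOgdh346 and 51.5 and 52.4 CPM under shOgdh2081, against 247 and 267 CPM in control BFP positive cells at day 4, a log2 fold change of -2.19 ± 0.09 (SE, adjusted p = 1.63e-30). Of 8 markers of leukocytes and myeloid progenitors, Kit was high, at 481 to 580 CPM, and Ptprc and Csf2rb were low, at 5.45 to 15.4 and 1.72 to 15.4 CPM. Spi1 did not pass 2.19 CPM, Mpo and Cd34 had 1 and 2 counts in all, and Cebpa and Itgam had 0, so several markers that define myeloid cells were absent or nearly so. Markers of B cells, T cells, fibroblasts, epithelium and endothelium, each class taken alone, summed to at most 27.3 CPM in any library. That highest sum was of the fibroblast markers, mostly Col1a2 (916 counts over all libraries), and the B cell markers summed to at most 0.388 CPM.

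**Figure D1:**
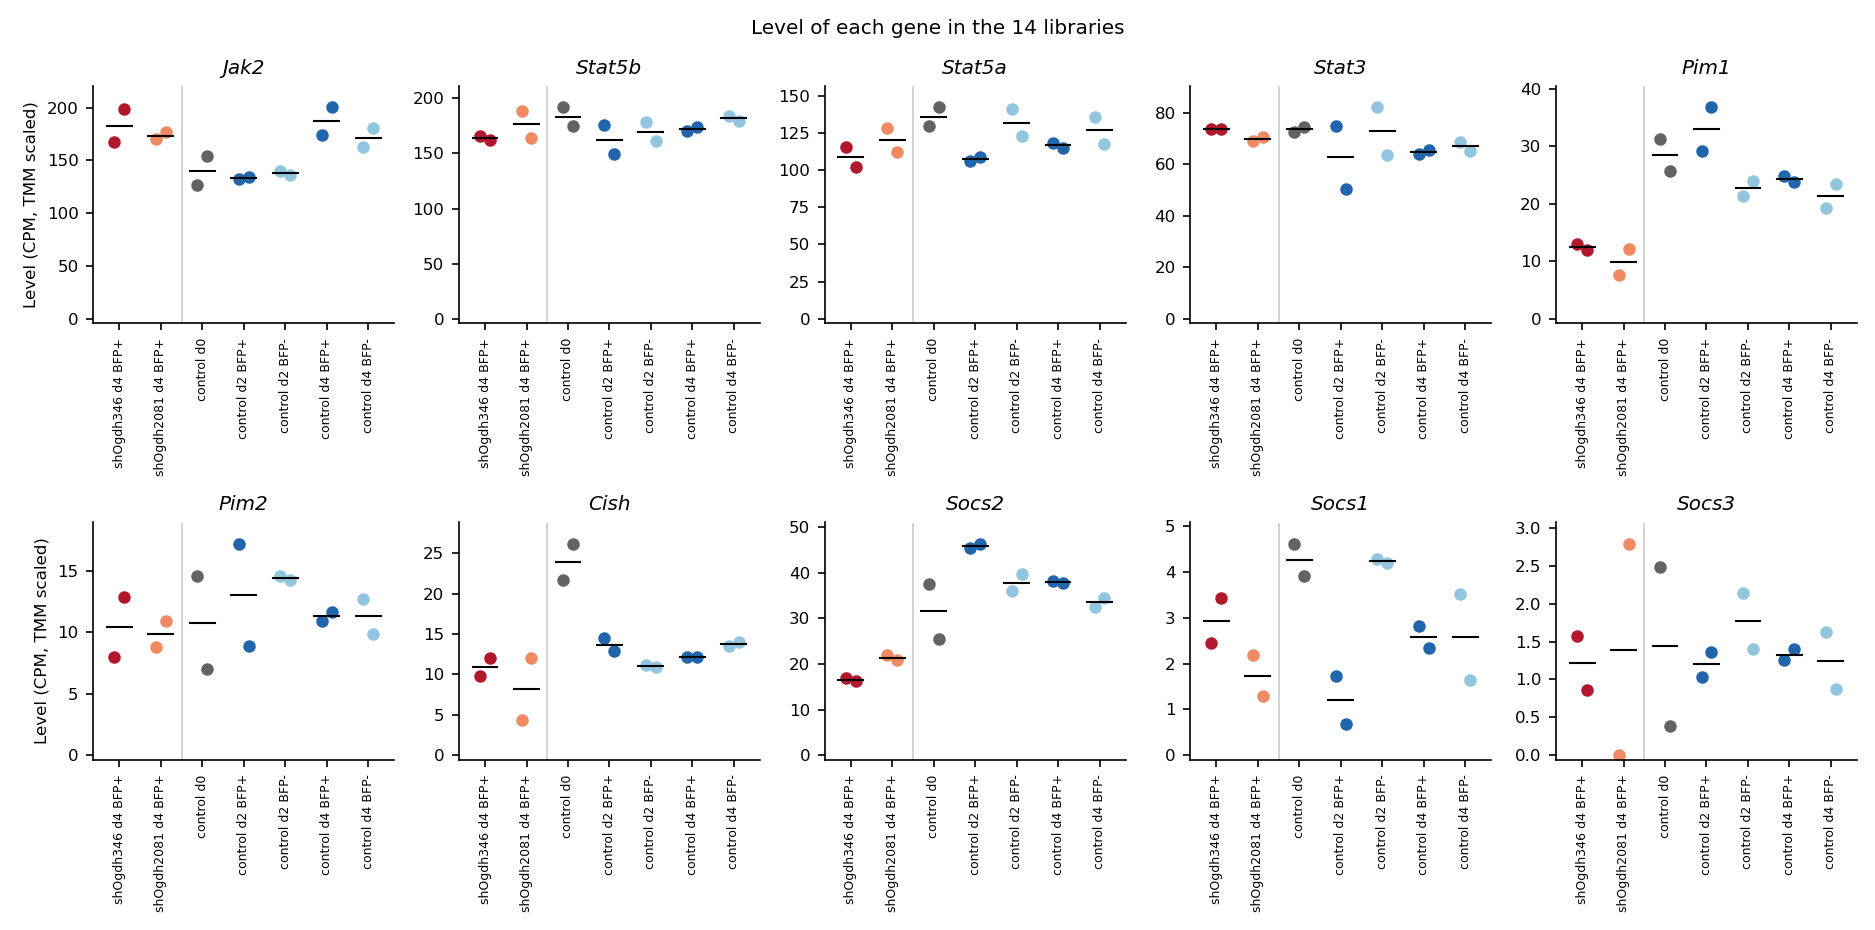
Level of each of the 10 genes in every library (y axis, CPM scaled with TMM factors, starting at 0), by group (x axis), with points for the 2 libraries of a group and a bar for their mean. Pim1 and Socs2 sit lowest in the 4 Ogdh knockdown libraries, and Cish is highest in the 2 day 0 libraries.

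Levels were compared between the 10 genes only per length, as the mean over the 7 groups of CPM per kilobase of deposited transcript length. The signalling genes came first, with Jak2 at 32, Stat5b at 31.2 and Stat5a at 17 CPM per kilobase. Pim1 followed at 8.25 and Stat3 at 7.27, then Pim2 at 4.15, Socs2 at 3.37, Socs1 at 2.29 and Cish at 2.09 CPM per kilobase. Socs3 was lowest at 0.474 CPM per kilobase. The deposited length of Pim1, 2638 bases, and that of Socs1, 1220 bases, are shorter than the exons of these genes in GENCODE M21, 3362 and 2908 bases, while those of the other 8 genes are the same. With the exon lengths, Pim1 would stand below Stat3 and Socs1 below Cish. Over the 7 group means, neighbours in the order by deposited length overlapped, except Stat5b and Stat5a, Stat5a and Pim1, Stat3 and Pim2, and Cish and Socs3.

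**Figure D2:**
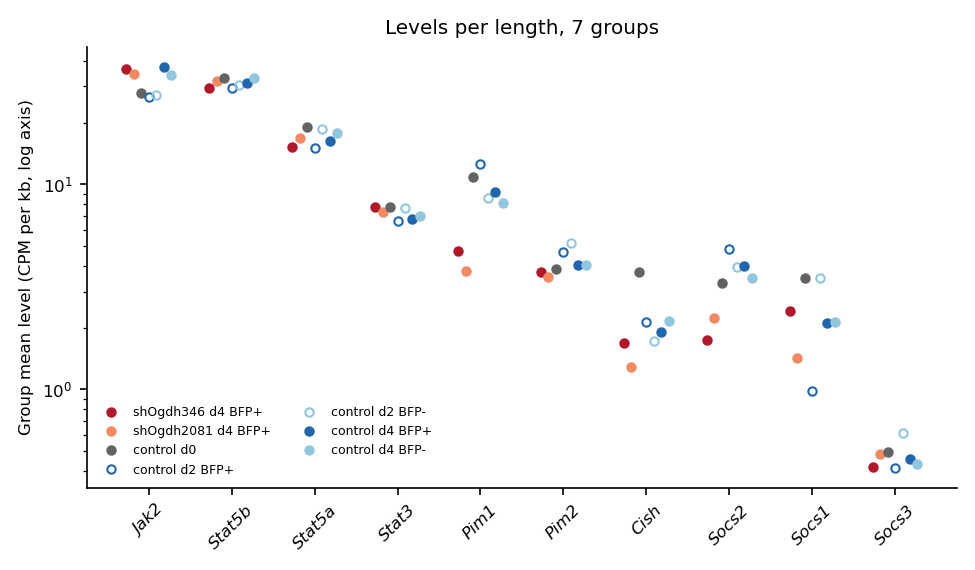
Group mean level per kilobase (y axis, CPM per kilobase, log axis) of each gene (x axis), with 1 point for each of the 7 groups and open circles for day 2. Jak2 and Stat5b lie highest and Socs3 lowest, and the 2 Ogdh knockdown groups are the lowest points of Pim1 and Socs2.

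Knockdown of Ogdh was compared at day 4, in BFP positive cells, as the mean of both hairpins against the control hairpin, in the quasi-likelihood test of edgeR. The threshold for a call was an adjusted p of 0.05 (Benjamini-Hochberg, over all 10791 genes tested), and all adjusted p-values below are of that kind unless another tool is named. Of the 10 genes 9 passed the filter on low counts, and Socs3 did not. Of these 9, 0 were called higher and 2 lower, while 16.1% of all genes tested were called, 7.72% higher and 8.36% lower. The share of the 9 called is close to that background. Their median log2 fold change was -0.21, against 0 over all genes tested.

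Jak2 (ENSMUSG00000024789, chr19:29251828-29313080 on GRCm38, plus strand) encodes the receptor-bound kinase at the head of the pathway. It had 168 and 199 CPM under shOgdh346 and 170 and 177 CPM under shOgdh2081, against 175 and 200 CPM in control BFP positive cells at day 4. The groups overlapped. The log2 fold change was -0.08 ± 0.08 (SE, adjusted p = 0.558), with a 95% interval of -0.24 to 0.08.

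Stat5a and Stat5b lie close together, Stat5a at chr11:100859351-100885169 on the plus strand (ENSMUSG00000004043) and Stat5b at chr11:100780731-100850724 on the minus strand (ENSMUSG00000020919). They encode the closely related STAT5 proteins that IL3 and erythropoietin activate. Stat5b had 166 and 163 CPM under shOgdh346 and 189 and 164 CPM under shOgdh2081, against 171 and 174 CPM in control BFP positive cells. Stat5a had 116 and 102 CPM under shOgdh346 and 128.3 and 111.8 CPM under shOgdh2081, against 118 and 115 CPM in the same control cells. In both genes the knockdown and control libraries overlapped. The log2 fold change of Stat5b was -0.04 ± 0.08 (SE, adjusted p = 0.814) and that of Stat5a -0.04 ± 0.09 (SE, adjusted p = 0.842). Reads are a little uncertain between the pair, since 5.04% of the 76-base windows of Stat5a transcripts and 6.88% of those of Stat5b occur in the other gene.

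Stat3 (ENSMUSG00000004040, chr11:100885098-100939540, minus strand) encodes the STAT that IL6 activates. It had 73.6 and 73.6 CPM under shOgdh346 and 69.1 and 70.6 CPM under shOgdh2081, against 63.9 and 65.8 CPM in control BFP positive cells at day 4. All 4 knockdown libraries lay above both control libraries, but the difference did not pass the test, at a log2 fold change of 0.15 ± 0.11 (SE, adjusted p = 0.395, 95% interval -0.07 to 0.38). Stat3 and Stat5a run towards each other and their exons overlap by 72 bases, and the sources used here do not give the strand setting of the counting.

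Pim1 (ENSMUSG00000024014, chr17:29490812-29496111, plus strand) encodes a serine/threonine kinase that has no regulatory subunit and is induced by STAT5. It had 13.1 and 11.98 CPM under shOgdh346 and 7.68 and 12.2 CPM under shOgdh2081, against 24.8 and 23.8 CPM in control BFP positive cells at day 4. All 4 knockdown libraries lay below both control libraries. Pim1 fell by 1.00 on the log2 scale (SE 0.19, adjusted p = 6.02e-05, 95% interval -1.37 to -0.64), to 0.499 of the control level. The call held in 14 of 14 fits that left out 1 library each, with log2 fold changes of -1.29 to -0.95, and in 10 of 10 other alternatives. Only the fits without a knockdown or a control BFP positive day 4 library change the groups compared. The rest change only the shared spread, scaling and filter, here and for every gene in this comparison. Exons of Pim1 overlap by 488 bases those of Gm26885, an antisense gene with 0 counts in all 14 libraries.

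Pim2 (ENSMUSG00000031155, chrX:7878262-7883432, plus strand) encodes a second PIM kinase, which in blood cells overlaps in function with PIM1. It had 8.04 and 12.8 CPM under shOgdh346 and 8.77 and 10.9 CPM under shOgdh2081, against 10.96 and 11.66 CPM in control BFP positive cells. The ranges overlapped, and the log2 fold change was -0.21 ± 0.26 (SE, adjusted p = 0.634). The 95% interval, -0.72 to 0.30, does not reach the value of Pim1, but the difference between these genes was not tested.

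Socs2 (ENSMUSG00000020027, chr10:95385362-95417180, minus strand) encodes a STAT5-induced protein best known for restraining growth hormone signalling. It had 16.9 and 16.3 CPM under shOgdh346 and 21.9 and 20.8 CPM under shOgdh2081, against 38.22 and 37.77 CPM in control BFP positive cells at day 4. The groups stood far apart, and the libraries within each differed by little. Socs2 fell by 1.01 on the log2 scale (SE 0.15, adjusted p = 1.3e-06, 95% interval -1.32 to -0.71), to 0.495 of the control level. It was called in 14 of 14 fits without 1 library, with log2 fold changes of -1.04 to -0.99, and in 10 of 10 other alternatives.

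Cish (ENSMUSG00000032578, chr9:107296026-107302784, plus strand) encodes CIS, a classical STAT5 target that competes with STAT5 at cytokine receptors. It had 9.78 and 11.98 CPM under shOgdh346 and 4.39 and 12.01 CPM under shOgdh2081, against 12.2 and 12.1 CPM in control BFP positive cells at day 4. The lowest of these is the shallowest library, where Cish rests on 4 counts. The log2 fold change was -0.23 ± 0.23 (SE, adjusted p = 0.557, 95% interval -0.68 to 0.23). It was not called in any of 14 fits without 1 library, at -0.86 to -0.11, with -0.86 without shOgdh2081 replicate 2, which leaves the shallowest library alone for that hairpin. Exons of Cish overlap by 740 bases those of the antisense genes Gm17040 and Gm17041, which had 15 and 0 counts over all libraries.

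Socs1 (ENSMUSG00000038037, chr16:10783808-10785536, minus strand) and Socs3 (ENSMUSG00000053113, chr11:117966079-117970047, minus strand) encode the SOCS proteins that inhibit JAK kinases directly. Socs1 had 2.45 and 3.42 CPM under shOgdh346 and 2.19 and 1.29 CPM under shOgdh2081, against 2.82 and 2.33 CPM in control BFP positive cells. Its log2 fold change of -0.43 ± 0.52 (SE, adjusted p = 0.631) has a 95% interval of -1.44 to 0.59. That interval includes both no change and a fall of the size seen in Pim1 and Socs2. Socs3 had 69 counts over all 14 libraries and was not tested. Its levels were 1.57 and 0.856 CPM under shOgdh346 and 0 and 2.79 CPM under shOgdh2081, against 1.253 and 1.399 CPM in control BFP positive cells, and they overlapped throughout.

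**Figure D3:**
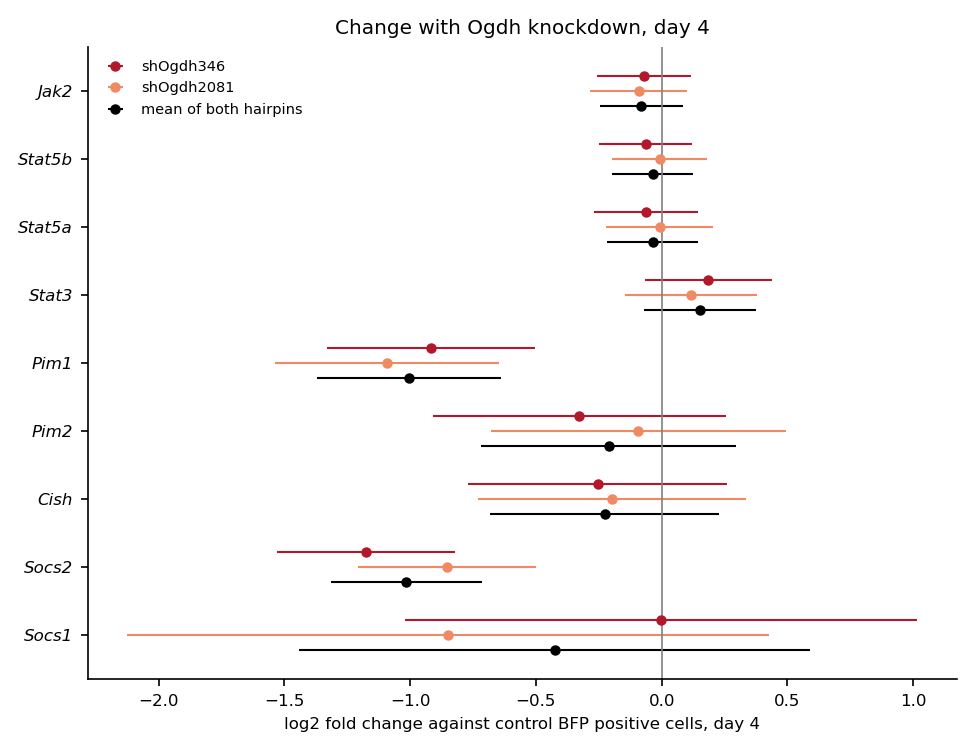
Log2 fold change against control BFP positive cells at day 4 (x axis) of the 9 genes tested (y axis), for shOgdh346, shOgdh2081 and the mean of both hairpins, with bars for the 95% interval. Pim1 and Socs2 lie near -1 with intervals that stay below 0, and the intervals of the mean of both hairpins cross 0 in the other 7 genes.

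Each hairpin was then set against the same 2 control libraries. With shOgdh346, Pim1 fell by 0.92 (SE 0.21, adjusted p = 0.00187) and Socs2 fell by 1.18 (SE 0.18, adjusted p = 2.45e-06) on the log2 scale, and these 2 of 9 were called, against 11.2% of all genes. With shOgdh2081, Pim1 fell by 1.09 (SE 0.23, adjusted p = 0.000534) and Socs2 fell by 0.85 (SE 0.18, adjusted p = 0.000683), and again 2 of 9 were called, against 11.6% of all genes. The Pim1 call with shOgdh346 was lost without shOgdh346 replicate 1 (-1.01, adjusted p = 0.127), without control BFP positive day 4 replicate 1 (-0.87, adjusted p = 0.0613) and when all libraries were thinned to the depth of the shallowest (-0.73, adjusted p = 0.26). The Socs2 call with shOgdh2081 was lost without shOgdh2081 replicate 2 (-0.80, adjusted p = 0.144) and after thinning (-0.64, adjusted p = 0.187).

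In the direct test of shOgdh346 against shOgdh2081, 0 of 9 genes were called by edgeR, 0 had an unadjusted p under 0.05 and 0 were called by DESeq2, while 0.0834% of all genes were called by edgeR. The log2 difference, shOgdh346 minus shOgdh2081, was 0.18 ± 0.25 for Pim1 (SE, 95% interval -0.31 to 0.66, adjusted p = 0.949). For Socs2 it was -0.32 ± 0.21 (SE, 95% interval -0.72 to 0.08, adjusted p = 0.779), although both shOgdh346 libraries, at 16.9 and 16.3 CPM, lay below both shOgdh2081 libraries, at 21.9 and 20.8 CPM.

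Control BFP negative cells at day 4 gave a second comparison, of different libraries, for the same 4 knockdown libraries. Pim1 had at most 13.1 CPM in the knockdown libraries, against 19.2 and 23.4 CPM in these cells, and Socs2 at most 21.9 CPM, against 32.5 and 34.4 CPM. Against them Pim1 fell by 0.86 (SE 0.16, adjusted p = 3.72e-05) and Socs2 fell by 0.84 (SE 0.13, adjusted p = 1.91e-06) on the log2 scale, and 20.8% of all genes were called. Cish had at most 12.01 CPM in the knockdown libraries, against 13.6 and 14.1 CPM in control BFP negative cells, and its log2 fold change there, -0.42 ± 0.18 (SE, adjusted p = 0.0934), did not pass the test.

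Markers of other blood cells differed between the same groups. The 4 erythroid markers summed to 589 and 568 CPM under shOgdh346 and 504 and 514 CPM under shOgdh2081, against 308 and 308 CPM in control BFP positive cells at day 4. The 4 mast cell markers summed to 118 and 134 CPM under shOgdh346 and 133 and 116 CPM under shOgdh2081, against 55.4 and 63.4 CPM in those control cells. Every erythroid marker and 3 of the 4 mast cell markers had counts in each of these groups. The mast cell sum is mostly Ms4a2, with 2810 counts over all 14 libraries, against 106 for Cpa3, 24 for Fcer1a and 1 for Mcpt8. In day 0 cells, where Pim1 and Socs2 lay above all 4 knockdown libraries, the erythroid markers summed to 466 and 499 CPM and the mast cell markers to 18.1 and 20.7 CPM. Their part in the lower Pim1 and Socs2 levels was not tested. In bulk samples such as these, fewer cells of a type and less RNA per cell cannot be told apart.

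The rest of the pathway was read from lists of related genes, each compared in the same contrast of both hairpins with control BFP positive cells. In that contrast edgeR called 16.1% of all genes tested, and DESeq2 called 700 genes. At such shares 0 calls in a list of a few genes is not unusual, but it is less usual in a list of 17 tested genes. Of the 7 other JAK and STAT genes 6 were tested and 0 were called by edgeR or DESeq2, with 1 at an unadjusted p under 0.05. Their median log2 fold change was 0.07, and their values ran from -0.26 to 0.26. Of 17 other brakes of the pathway, such as the phosphatase genes Ptpn6 and Ptpn11 and the PIAS genes, 17 were tested and 0 were called by edgeR or DESeq2, with 0 at an unadjusted p under 0.05 and a median of 0.04. Of 11 cytokine genes only Osm and Il4 had enough counts to test, and 0 were called by edgeR or DESeq2, with 0 at an unadjusted p under 0.05. Il3, Kitl, Epo and Thpo had 0 counts. DESeq2 may have given no adjusted p to genes of low counts such as Usp18 (113 counts) and Il4 (320 counts). Its 0 is not a second negative for such genes.

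Among 17 receptor genes 11 were tested, 2 were called higher, 0 lower and 9 not called, with a median of 0.14. This share is close to the 16.1% called over all genes tested. Csf2rb, the shared signalling chain of the IL3, IL5 and GM-CSF receptors, had 11.53 and 10.27 CPM under shOgdh346 and 15.4 and 9.87 CPM under shOgdh2081, against 6.27 and 3.73 CPM in control BFP positive cells. It rose by 1.08 ± 0.30 on the log2 scale (SE, adjusted p = 0.00799). Csf2ra, the GM-CSF-binding chain, had 15.9 and 12.8 CPM under shOgdh346 and 10.97 and 11.8 CPM under shOgdh2081, against 7.20 and 7.46 CPM in control BFP positive cells. It rose by 0.86 ± 0.25 (SE, adjusted p = 0.013), and in both genes all knockdown libraries lay above both control libraries. Both calls rest on low counts. That of Csf2rb was lost without shOgdh346 replicate 1 (1.01, adjusted p = 0.0739), without control BFP positive day 4 replicate 2 (0.81, adjusted p = 0.143) and after thinning (1.02, adjusted p = 0.182). That of Csf2ra was lost without shOgdh346 replicate 1 (0.74, adjusted p = 0.132), without shOgdh2081 replicate 2 (0.82, adjusted p = 0.123) and without either control replicate (0.84, adjusted p = 0.197, and 0.88, adjusted p = 0.0709). DESeq2 called 0 of the receptor genes and gave neither of these an adjusted p. Csf2rb has a close copy, Csf2rb2 (log2 fold change 0.67 ± 0.66, SE, adjusted p = 0.536), and reads may be split between the pair. Csf2rb is also among the progenitor markers above. The receptors for the added cytokines differed in total counts, which were not divided by length. Kit, the SCF receptor, had 24777 counts over all libraries, while Il3ra had 62, Il6st 41 and Il6ra 2 counts and were not tested.

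Of 12 other known STAT5 targets 10 were tested, 1 was called higher, 1 lower and 8 not called, with a median of -0.23, again close to the 16.1% called over all genes. Ccnd2, which encodes the G1 cyclin D2, had 190 and 185 CPM under shOgdh346 and 214 and 206 CPM under shOgdh2081, against 249 and 289 CPM in control BFP positive cells. It fell by 0.43 on the log2 scale (SE 0.08, adjusted p = 1.87e-05), and was called in 14 of 14 fits without 1 library and in 10 of 10 other alternatives. Bcl6, which encodes a transcriptional repressor that STAT5 is known to switch off in lymphoid cells, had 2.45 and 2.57 CPM under shOgdh346 and 6.58 and 4.08 CPM under shOgdh2081, against 0.313 and 0.466 CPM in control BFP positive cells. It was called higher (log2 fold change 3.04 ± 0.78, SE, adjusted p = 0.00384), but each of those control values is 1 count, and the call was lost without control BFP positive day 4 replicate 1 (2.76, adjusted p = 0.167). DESeq2 gave Bcl6 no adjusted p. Every library outside shOgdh2081 had at most 2.57 CPM of Bcl6. It therefore passed the filter on low counts only through a knockdown group where it was high, and its call was favoured in advance. Mcl1 and Bcl2l1, survival genes of the BCL2 family, and Myc were not called, at log2 fold changes of -0.19 ± 0.08, -0.29 ± 0.19 and 0.06 ± 0.07 (SE).

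Of 12 other known STAT3 targets, many of them immediate early genes, 7 were tested and 0 were called by edgeR or DESeq2, with 3 at an unadjusted p under 0.05. Over all genes tested, edgeR called 16.1%. All 7 values were below 0, from -1.94 to -0.06, with a median of -0.71 against 0 over all genes tested. The levels stood less clearly apart from control BFP negative cells at day 4. There all knockdown libraries were lower for Fos, Junb and Il4ra, while they overlapped the controls for Maff, Zfp36, Cebpd and Vegfa. In day 0 cells Vegfa, at 4.26 and 4.30 CPM, and Cebpd, at 2.84 and 1.56 CPM, lay below all knockdown libraries. Maff, at 5.68 and 4.69 CPM, lay above them. Fos, at 0.355 and 0 CPM, Zfp36, Junb and Il4ra overlapped them. The median log2 fold change of the 7 genes in control BFP positive cells, day 4 against day 0, was 0.76. With knockdown, against control BFP positive cells at day 4, Fos had a log2 fold change of -1.94 ± 0.73 (SE, adjusted p = 0.0593). It encodes a subunit of the AP-1 transcription factor. In the same comparison Maff had one of -0.81 ± 0.34 (SE, adjusted p = 0.0999) and Junb one of -0.58 ± 0.24 (SE, adjusted p = 0.0895). Fos had 100 counts over all libraries, Il4ra 145, Zfp36 146, Cebpd 180 and Maff 237. These are fewer than the 381 of Csf2ra, to which DESeq2 gave no adjusted p. DESeq2 may have given these genes none either, so its 0 is not a second negative for them.

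Of 8 genes of the PIM kinases' circle, Pim3 and 7 known substrates, 8 were tested, 0 were called higher, 1 lower and 7 not called, with a median of -0.06. This share is no higher than the 16.1% called over all genes. Cdc25a, a cell cycle phosphatase that PIM1 can phosphorylate, had 130 and 130 CPM under shOgdh346 and 125 and 139 CPM under shOgdh2081, against 168.2 and 142.7 CPM in control BFP positive cells. It fell by 0.24 on the log2 scale (SE 0.08, adjusted p = 0.0375), and was called in 9 of 14 fits without 1 library and in 4 of 10 other alternatives. The call was lost after thinning (adjusted p = 0.31), in DESeq2 (0.156), without the shallow library of each hairpin (0.121), with no filter on low counts (0.0619), with a block by library number (0.0583) and against control BFP negative cells (-0.14, adjusted p = 0.18). Without control BFP positive day 4 replicate 1 the log2 fold change was -0.10 (adjusted p = 0.706), and the other losses among the fits without 1 library were without either shOgdh346 library (adjusted p = 0.116 and 0.0548), shOgdh2081 replicate 1 (0.0853) or day 0 replicate 2 (0.0526). Pim3, the remaining PIM kinase, had a log2 fold change of -0.21 ± 0.12 (SE, adjusted p = 0.221).

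Control cells alone showed what the induced hairpin and the sort did without Ogdh knockdown. At day 4, BFP positive against BFP negative cells, 0 of 9 genes were called by edgeR or DESeq2 and 0 had an unadjusted p under 0.05, where 0.0741% of all genes were called by edgeR. At day 2, 0 of 9 were called by edgeR or DESeq2 and 3 had an unadjusted p under 0.05, where 6.23% of all genes were called by edgeR. Pim1 had 29.3 and 36.8 CPM in BFP positive and 21.4 and 24.0 CPM in BFP negative cells at day 2, without overlap and with a log2 fold change of 0.47 ± 0.19 (SE, adjusted p = 0.125). Stat5a had 106 and 108 CPM in BFP positive and 140.9 and 122.9 CPM in BFP negative cells at day 2 (-0.29 ± 0.11, SE, adjusted p = 0.101). Socs1 had 1.72 and 0.681 CPM in BFP positive and 4.28 and 4.20 CPM in BFP negative cells at day 2 (-1.60 ± 0.61, SE, adjusted p = 0.11), and this value was -2.57 without BFP positive replicate 1 and -1.27 without BFP positive replicate 2. The change of this BFP effect, day 4 minus day 2, was called in 0 of 9 genes by edgeR or DESeq2, with Socs1 alone at an unadjusted p under 0.05 (1.87 ± 0.81, SE, adjusted p = 0.397), and in 0.658% of all genes by edgeR. That value of Socs1 was 1.17 without day 4 BFP negative replicate 2 and 2.84 without day 2 BFP positive replicate 1.

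Over time, Cish was the gene called against day 0 in each of the 4 sorted control populations. Its levels were 21.6 and 26.2 CPM in untreated control cells at day 0, 14.5 and 13.0 CPM in BFP positive and 11.13 and 10.96 CPM in BFP negative cells at day 2, and 12.2 and 12.1 CPM in BFP positive and 13.6 and 14.1 CPM in BFP negative cells at day 4. Both day 0 libraries stood above all 8 later control libraries. These comparisons share the day 0 libraries, and time, doxycycline and sorting cannot be told apart in them.

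Against day 0, Cish fell by 0.77 in BFP positive cells at day 2 (SE 0.23, adjusted p = 0.0145) and fell by 1.11 in BFP negative cells at day 2 (SE 0.22, adjusted p = 0.000354) on the log2 scale. At day 4 it fell by 0.97 in BFP positive cells (SE 0.23, adjusted p = 0.00393) and fell by 0.78 in BFP negative cells (SE 0.19, adjusted p = 0.00465). Only the comparison of BFP negative cells at day 2 was called in all 14 fits without 1 library, with log2 fold changes of -1.24 to -0.97. Thinning ended the call in each population, with log2 fold changes of -0.78 in BFP positive (adjusted p = 0.231) and -0.68 in BFP negative cells (0.403) at day 2, and of -1.04 in BFP positive (0.177) and -0.31 in BFP negative cells (0.792) at day 4. DESeq2 did not call Cish in BFP positive cells at day 2 (-0.79, adjusted p = 0.154) and gave it no adjusted p in either population at day 4. Without day 0 replicate 2, the library with the higher Cish level, the adjusted p of Cish was 0.145 in BFP positive cells at day 2, 0.0931 in BFP positive cells at day 4 and 0.157 in BFP negative cells at day 4. The call was also lost without either library of BFP positive cells at day 2 (adjusted p = 0.104 and 0.0667), without day 4 BFP negative replicate 2 (adjusted p = 0.0663) and without day 4 BFP positive replicate 1 (adjusted p = 0.0842), each in the comparison of that group.

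Jak2 ran the other way at day 4. It had 126.7 and 154.3 CPM at day 0, 132 and 134 CPM in BFP positive and 140 and 136 CPM in BFP negative cells at day 2, and 175 and 200 CPM in BFP positive and 162 and 181 CPM in BFP negative cells at day 4. All 4 day 4 control libraries lay above the 6 earlier ones. Against day 0, Jak2 rose by 0.41 in BFP positive cells at day 4 (SE 0.10, adjusted p = 0.00434) and by 0.30 in BFP negative cells at day 4 (SE 0.09, adjusted p = 0.0262) on the log2 scale. Without day 0 replicate 1, the lower of the pair, these were 0.27 (adjusted p = 0.246) and 0.16 (adjusted p = 0.539). Without replicate 2 of the day 4 group they were 0.31 in BFP positive cells (adjusted p = 0.155) and 0.20 in BFP negative cells (adjusted p = 0.443). The call in BFP negative cells was also lost in DESeq2 (adjusted p = 0.158) and after thinning (adjusted p = 0.241).

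Further calls against day 0 were made in BFP positive cells at day 2. Socs2 had 45.4 and 46.3 CPM there and 37.6 and 25.4 CPM at day 0, and rose by 0.53 on the log2 scale (SE 0.17, adjusted p = 0.0183). Stat5a had 106 and 108 CPM there and 129.5 and 142.2 CPM at day 0, and fell by 0.34 (SE 0.11, adjusted p = 0.0197). Both calls were lost without day 0 replicate 2 (Socs2 0.28, adjusted p = 0.382, and Stat5a -0.28, adjusted p = 0.191), in DESeq2 (adjusted p = 0.136 and 0.105) and after thinning (adjusted p = 0.342 and 0.113). Without day 2 BFP positive replicate 1 the adjusted p was 0.135 for Socs2 and 0.174 for Stat5a, and without replicate 2 it was 0.0536 and 0.0588. In all, 3 of 9 genes were called in BFP positive cells at day 2, against 17.9% of all genes, and 1 of 9 in BFP negative cells at day 2, against 10.3%. At day 4 the counts were 2 of 9 in BFP positive cells, against 7.11% of all genes, and 2 of 9 in BFP negative cells, against 8.03%. These background shares move with single libraries: the 767 genes called in BFP positive cells at day 4 were 178 without day 4 BFP positive replicate 1, and the 866 in BFP negative cells were 222 without day 4 BFP negative replicate 2 or day 0 replicate 2.

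**Figure D4:**
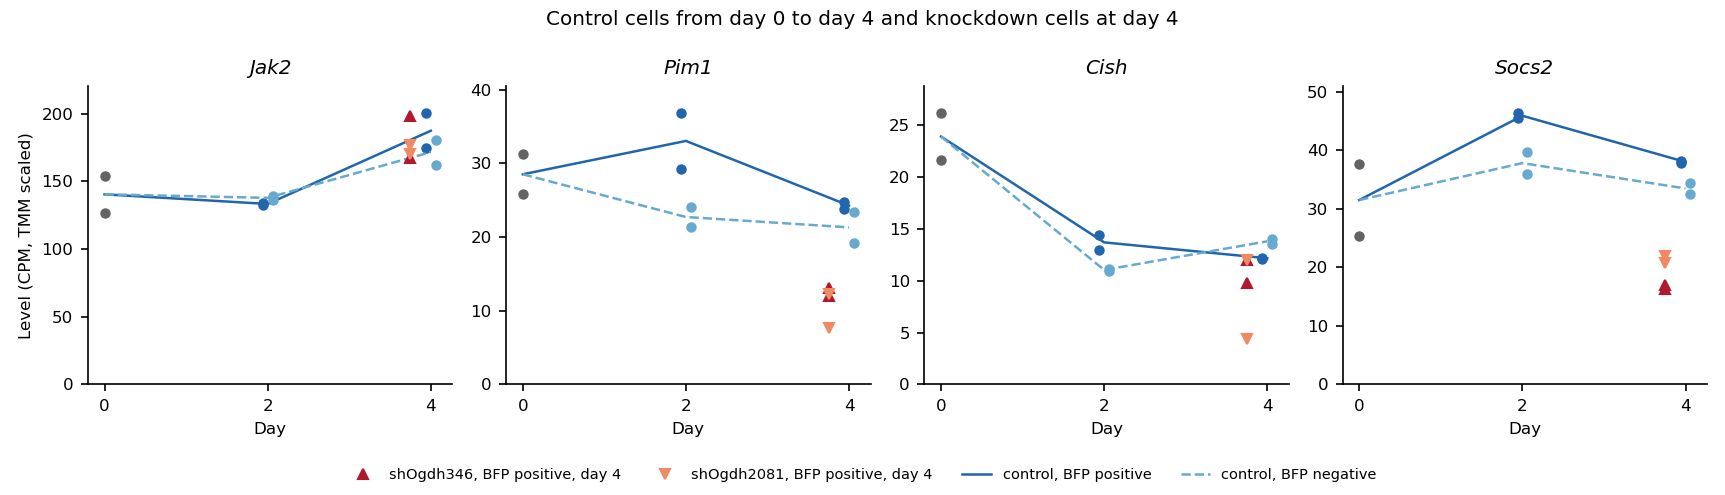
Levels (y axis, CPM scaled with TMM factors) of Jak2, Pim1, Cish and Socs2 in control cells at days 0, 2 and 4 (x axis), with dots for libraries and lines through the means of BFP positive and BFP negative cells, and triangles for the day 4 knockdown libraries, drawn just left of day 4. The triangles of Pim1 and Socs2 lie below every control library, whereas Cish is lower in all later control libraries than at day 0.

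Across all 7 groups, an F test in the same fit called 6 of the 9 genes, where 49.3% of all genes were called, so variation over the study was common. The 6 were Socs2 (adjusted p = 1.02e-09), Pim1 (adjusted p = 2.23e-08), Jak2 (adjusted p = 7.93e-06), Cish (adjusted p = 5.77e-05), Stat5a (adjusted p = 0.04) and Socs1 (adjusted p = 0.0473). Stat5a and Socs1 were not called by DESeq2 (adjusted p = 0.275 and 0.491) or without the shallow library of each Ogdh hairpin (adjusted p = 0.0614 and 0.0612), and Socs1 was called in 1 and Stat5a in 7 of 14 fits without 1 library. After thinning Cish (adjusted p = 0.0754) and Stat5a (0.109) were not called, and Socs1 did not pass the filter on low counts. Stat5b, Stat3 and Pim2 were not called (adjusted p = 0.512, 0.679 and 0.237).

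The order of the group means shows where the levels stood apart. Pim1 was lowest with shOgdh2081 (9.95 ± 3.22 CPM, SD, n = 2) and shOgdh346 (12.54 ± 0.793), and highest in control BFP positive cells at day 2 (33.0 ± 5.33), with day 4 BFP positive cells (24.3 ± 0.683) and day 0 cells (28.5 ± 3.85) between, a ratio of 3.32 between the highest and lowest mean. Of its 6 pairs of neighbours in that order 2 did not overlap, among them the step between shOgdh346 and the lowest control group, day 4 BFP negative cells. Socs2 was lowest with shOgdh346 (16.6 ± 0.485 CPM) and shOgdh2081 (21.4 ± 0.793) and likewise highest in control BFP positive cells at day 2 (45.9 ± 0.633), a ratio of 2.76, with 4 of 6 neighbour pairs apart.

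Among the remaining genes Cish spanned a ratio of 2.92, with 3 of 6 neighbour pairs apart and the widest gap between day 0 (23.9 ± 3.20 CPM, SD, n = 2) and the next group. Jak2 spanned 1.41, its 4 day 4 groups, knockdown and control, all lying above its day 0 and day 2 groups. Stat5b, Stat3 and Stat5a spanned 1.13, 1.17 and 1.27, with 0, 1 and 0 of 6 neighbour pairs apart. Pim2 spanned 1.46 and Socs3 1.48, and in both 0 of 6 neighbour pairs were apart. Socs1 spanned 3.55, at levels of 0.681 to 4.61 CPM, where a few counts set the value.

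Over the 14 libraries the Pearson r of log2 CPM was 0.84 between Pim1 and Socs2, 0.71 between Pim1 and Cish, 0.61 between Socs1 and both Stat3 and Stat5a, -0.57 between Pim1 and Jak2 and -0.56 between Socs2 and Jak2. These libraries share groups and differ in depth, so the coefficients are descriptions and carry no p. Among 9649 other tested genes with a mean of at least 5 CPM, those most like Pim1 were Rfc4, a subunit of the clamp loader of DNA replication (0.978), Slc25a5, a mitochondrial ADP/ATP carrier (0.962), and Chaf1b, a subunit of a chromatin assembly factor (0.959). Those most like Socs2 were Gcsh, a subunit of the glycine cleavage system (0.955), Hint1, a nucleotide-binding protein gene (0.948), and Anp32b, a histone chaperone gene (0.936).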

How the data were processed

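RNA was measured by sequencing in 14 samples of the line KL974. The labels' protocols describe TruSeq libraries of polyA RNA, read from a single end for 76 bases. The authors deposited whole-number counts per gene, not normalized. Alignment with STAR 2.6.1a after Trimmomatic 0.36 and FastQC 0.11.5, counting with featureCounts 1.6.3 and the builds mm10 and GRCm38 come from the submitters' processing notes, whereas the labels' protocols name HTSeq, an RPKM matrix and a human build. Mouse identifiers and whole counts are what the table holds. The sources used here do not give the strand setting. The authors also deposited a transcript length per gene (other unit, in bases), used only for levels per kilobase.

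Low-count genes were removed by filterByExpr with the 7 groups (10791 of 53465 kept). Counts were scaled with TMM factors (0.968 to 1.013) and tested with edgeR 4.0.16 in R 4.3.3, quasi-likelihood, two-sided, with group as the only term and all 14 samples in 1 fit (7 residual and 57.6 prior degrees of freedom, with a biological coefficient of variation of 5.04%). Errors are standard errors of log2 fold changes unless SD is written, from which 95% intervals were taken under a normal approximation. A permutation test of 2 against 2 cannot pass the threshold and was not used. The fit was tested on simulated data. DESeq2 1.42.0, equal-depth thinning with a fixed seed, other filters, replicate blocks and leaving out each library were alternatives. Depth limits low genes: Socs3 had too few counts to test.

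Groups and replicate numbers came from the sample titles. All 10 genes were named in every group, and from each other list at most 4 called genes in order of adjusted p, while further genes named there were chosen after their values were seen. The 3 genes most like Pim1 and Socs2 were ranked by Pearson r of log2 CPM (prior count 2). The 10 genes and all lists were chosen with earlier results of these data known. Il4ra, Osm, Cdkn1a and Pim3 each stand in 2 lists. Protein sequences were not analysed here.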

Additional observations from a re-analysis of the deposited data

How the results depend on the processing

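Of 2437 values of these genes under an alternative, 2377 stayed on their side of the threshold, 59 lost a call, 1 gained one and 0 called values changed sign. Most of the 2437 were not called in the main fit and had no call to lose. The 59 are therefore a larger share of the calls that could be lost than of the 2437. Values that were not called could change sign, such as Pim2 with shOgdh346 (-0.33, and 0.22 after thinning). In the comparison of both hairpins with control BFP positive cells, Pim1 and Socs2 were called in every alternative run. Thinning all libraries to the depth of the shallowest left 1 gene called with shOgdh346, 1 with shOgdh2081, 3 in the F test over 7 groups, and, against day 0, 0 in both BFP populations at day 2, 1 in BFP positive and 0 in BFP negative cells at day 4. DESeq2 called 0 against day 0 in BFP positive cells at day 2, 1 in BFP positive cells at day 4 and 0 in BFP negative cells at day 4, but it gave 2, 6 and 6 of the genes no adjusted p in these comparisons, so these are not all lost calls. Leaving out 1 library in turn gave 1 to 2 called genes with shOgdh346, 1 to 2 with shOgdh2081, 4 to 6 in the F test and, against day 0, 0 to 3 in BFP positive cells at day 2, 1 to 2 in BFP positive and 0 to 2 in BFP negative cells at day 4. Over all genes, both hairpins against control BFP positive cells gave 1735 calls, 770 after thinning, 700 by DESeq2 and 461 to 1899 without 1 library, with 461 without control BFP positive day 4 replicate 1 and 936 without replicate 2. Without 1 library, BFP positive cells against day 0 gave 860 to 2059 calls at day 2 (1928 with all libraries) and 178 to 931 at day 4 (767), and BFP negative cells 330 to 1230 at day 2 (1112) and 222 to 1042 at day 4 (866). Thinning and leaving out a library leave fewer counts or samples, and for DESeq2 the cause was not tested. Socs1 gained a call against day 0 in BFP positive cells at day 2 (-1.68, adjusted p = 0.0473) with a block by library number.

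The replicate numbers of the titles did not pair the libraries: over 21 pairs of groups the correlation of same-numbered deviations was -0.23 to 0.31, with a median of 0.01. With the replicate block, 2 of the 9 genes and 1850 of all genes were called in the comparison of both hairpins, with Pim1 at -1.01 and Socs2 at -1.01. With a block by library number, whose meaning the labels do not give, these were 2 and 1630, with Pim1 at -1.05 and Socs2 at -1.0.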
